A study of Homo sapiens with 12 samples.

Results

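The 41 genes described here are interferon-stimulated effector genes, whose products carry out the antiviral response of a cell. All probes annotated to the 41 gene symbols were taken, 62 of the 47320 probes on the array. Of these probes 59 were detected on at least 2 arrays, and each of the 41 genes entered the tests, among 20060 features, by its brightest probe. A single probe represented 28 of the genes, and 13 had several. The genes span the IFIT and OAS families, the MX and GBP GTPases, the IFITM proteins and tetherin, the ISG15 conjugation system, and smaller groups.

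Interferons are secreted when a cell senses viral or other foreign nucleic acid. Type I and type III interferons bind their receptors on the same or on neighbouring cells and activate the kinases JAK1 and TYK2. Their signal leads to ISGF3, a complex with the DNA-binding protein IRF9, which binds the interferon-stimulated response element (ISRE) near the start of its target genes. Airway epithelium is known as an early source of interferon and as one of its main targets during viral infection.

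RNA was measured on Illumina bead arrays in A549, a line from a lung adenocarcinoma, and in BEAS-2B, an immortalised line from bronchial epithelium. After a night without serum, cells of each line were given medium alone (control) or 0.25% poultry dust extract, the latter for 1 h or 6 h. The 6 groups were thus A549 control, A549 dust 1 h, A549 dust 6 h, BEAS-2B control, BEAS-2B dust 1 h and BEAS-2B dust 6 h, with 2 arrays each, numbered 1 and 2. No time is given for the control arrays. The labels do not say what the numbers stand for. The 3 arrays of a line that carry one number may share a culture or a day, so a p-value between numbers measures only the spread among these arrays. The arrays of a number also lay next to each other on the chip, so number and chip position cannot be told apart.

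Between 37.5% and 41.1% of all probes were detected per array, and detection began at 5.18 to 5.32 on the log2 scale of normalised signal. All levels below are on that scale, and values near or under this floor are background. Epithelial markers were detected in both lines. Of 7 such markers, 7 were detected in BEAS-2B and 6 in A549, where the basal keratin gene KRT5 was at background. All 6 markers of A549 identity were detected in A549, and their summed level there was 15.85 to 16.22 (log2). In BEAS-2B that sum was 8.49 to 8.68 on the arrays numbered 1 and 8.83 to 9.30 on those numbered 2.

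The ISRE is the sequence through which ISGF3 acts, so the promoters were searched for its core, GAAA, any 2 bases and GAAA again, on both strands (TTTC, any 2 bases and TTTC on the reverse). RefSeq promoter windows on GRCh38.p14, from 250 bases before to 50 bases after each gene start, were matched by symbol for 33 of the 41 genes. The core was present in 24 of the 33 (72.7%), against 4.38% of the 27305 genes with a window. The letters of the GAS element, TTCNNNGAA, which is its own reverse complement and can overlap an ISRE core, were present in 10 of 33 (30.3%), against 9.38% of all genes. A match describes these letters only.

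The windows below show 1 gene from each role group whose promoter held the core before the gene start, the gene with the largest difference between the BEAS-2B array numbers described further on. Each runs 5′ to 3′ on the strand of the gene, and capitals mark the core. The positions on GRCh38.p14 are chr10:89392495-89392554 (plus strand) for IFIT1, chr12:112938437-112938473 (plus) for OAS3, chr21:41431829-41431888 (plus) for MX1, chr11:313975-314034 (plus) for IFITM1 and chr1:1013365-1013424 (plus) for ISG15. For RSAD2 the window is chr2:6877607-6877666 (plus), for IFI27 chr14:94110616-94110675 (plus), for ISG20 chr15:88638922-88638981 (plus), for PARP9 chr3:122564307-122564366 (minus) and for IFI44L chr1:78620350-78620409 (plus). In IFIT1 and IFI27 a pair of cores lay side by side, and in ISG15 overlapping cores shared their middle letters.
IFIT1: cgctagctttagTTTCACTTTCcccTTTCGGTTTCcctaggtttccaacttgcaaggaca
OAS3: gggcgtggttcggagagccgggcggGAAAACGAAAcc
MX1: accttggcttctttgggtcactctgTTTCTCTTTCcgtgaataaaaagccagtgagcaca
IFITM1: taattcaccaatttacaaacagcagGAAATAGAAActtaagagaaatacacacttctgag
ISG15: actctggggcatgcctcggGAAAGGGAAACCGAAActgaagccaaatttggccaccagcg
RSAD2: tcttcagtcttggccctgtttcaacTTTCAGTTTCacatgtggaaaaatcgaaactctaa
IFI27: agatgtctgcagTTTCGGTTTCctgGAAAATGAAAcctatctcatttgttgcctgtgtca
ISG20: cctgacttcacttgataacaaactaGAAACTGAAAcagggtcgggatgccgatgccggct
PARP9: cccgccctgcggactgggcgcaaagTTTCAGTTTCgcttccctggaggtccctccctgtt
IFI44L: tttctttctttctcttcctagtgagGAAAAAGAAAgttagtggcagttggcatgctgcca

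The first comparison set the BEAS-2B arrays numbered 1 against those numbered 2, over control, 1 h and 6 h. All 41 genes were higher on number 1 and passed the test (limma, Benjamini-Hochberg adjusted p under 0.05), where 5.74% of all features passed in that direction and 13.7% in either. The median difference was 3.07 on the log2 scale, an 8.4-fold ratio, and that of all features was -0.02. Differences ran from 1.33 for IFITM2 to 6.64 for OAS2, with adjusted p from 3.77e-08 to 0.0123. Over 8-fold lay 22 of the genes by the fitted difference, against 0.165% of all features. Of these CMPK2 has a bound of only 5.32-fold, and 21 lay over 8-fold with undetected genes at their bound, at an unchanged median of 3.07. Among the 20 features with the largest fitted upward difference, 17 were these genes, and among the top 100, 34 were. RSAD2, CMPK2 and TRIM22 were detected on fewer than 2 arrays outside BEAS-2B number 1 and so entered the test through the arrays where they were high. Of the other 38 genes, 38 passed. In bulk RNA, more cells that express a gene and more RNA per cell cannot be told apart.

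The difference was present in each condition. Its median was 3.49 between the control arrays, 3.17 between the 1 h arrays and 2.54 between the 6 h arrays. Each time 41 of 41 genes lay above 0, against 47.5% (control), 46.8% (1 h) and 49.7% (6 h) of all features. In all 41 genes the 3 arrays numbered 1 lay above the 3 numbered 2, as in 11.7% of all features. For 40 of the genes they also lay above the other 9 arrays, those of A549 included (5.84% of all features). The exception was OAS1. The additional probes of genes with several probes ran the same way. Of these 21, 18 were detected on at least 2 arrays, and 18 were higher on number 1, each by more than 1 on the log2 scale. The additional probes of OAS2, OASL and XAF1 were detected on BEAS-2B number 1 only, and so were kept through the arrays where they were high.

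**Figure D1:**
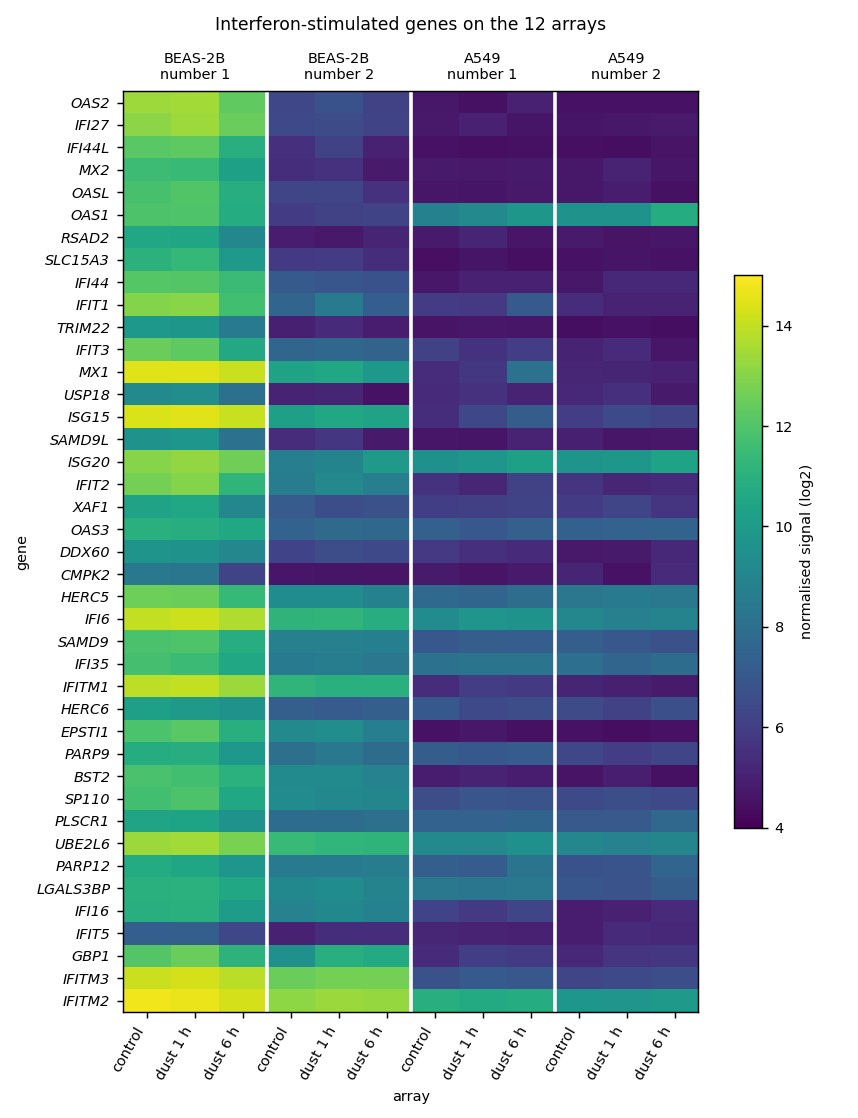
Normalised signal (log2, colour) of the 41 genes (rows) on the 12 arrays (columns, by line, number and condition). Rows run from the largest to the smallest difference between the BEAS-2B numbers. The 3 BEAS-2B columns numbered 1 stand apart from the BEAS-2B columns numbered 2 and from A549 in nearly every row.

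The IFIT proteins bind foreign RNA that lacks the marks of host mRNA and hinder its translation. In BEAS-2B control, 1 h and 6 h, in the order used from here on, IFIT1 stood at 12.95, 13.06 and 11.68 on number 1 and at 7.58, 8.47 and 7.28 on number 2, while the A549 arrays ran from 5.05 to 7.11 (median 5.63). This is a difference between numbers of 4.79 (SE 0.28, adjusted p = 1.13e-05), or 27.7-fold. The lowest array of number 1 lay above the highest of number 2. IFIT3 stood at 12.50, 12.28 and 10.64 against 7.59, 7.70 and 7.50, with A549 from 4.67 to 6.13 (median 5.49), and differed by 4.21 (SE 0.31, adjusted p = 4.34e-05). IFIT2 stood at 12.68, 12.96 and 11.21 against 8.64, 9.19 and 8.70, with A549 from 5.17 to 6.19 (median 5.42), and differed by 3.44 (SE 0.29, adjusted p = 9.16e-05). Both were also apart on every pair of arrays. IFIT5 differed least in this family, by 1.71.

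The OAS enzymes make oligoadenylates when they bind double-stranded RNA, whereas OASL is a family member without that activity. OAS2 showed the largest difference of all 41 genes. It stood at 13.40, 13.46 and 12.31 on number 1 and at 6.35, 6.78 and 6.11 on number 2, a difference of 6.64 (SE 0.18, adjusted p = 3.77e-08) or 99.8-fold. It was undetected on all 6 A549 arrays (4.49 to 5.0, median 4.54). OASL, undetected in A549 as well (4.50 to 4.82, median 4.70), stood at 11.81, 12.01 and 10.85 against 6.30, 6.29 and 5.57, a difference of 5.51 (SE 0.15, adjusted p = 3.77e-08). OAS1 had another order among the lines. Its BEAS-2B levels were 11.91, 11.99 and 10.79 on number 1 and 5.97, 6.16 and 6.26 on number 2, a difference of 5.43 (SE 0.25, adjusted p = 3.16e-06), and in A549 it ran from 8.85 to 10.81 (median 9.66). A549 thus lay between the 2 sets of BEAS-2B arrays, apart from the A549 6 h array numbered 2, which was level with BEAS-2B 6 h number 1. OAS3 differed by 3.13.

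MX1 and MX2 are dynamin-like GTPases that trap viral components, and GBP1 is a GTPase best known as a target of interferon gamma. MX2 stood at 11.52, 11.43 and 10.27 on number 1 and at 5.46, 5.56 and 4.80 on number 2, a difference of 5.80 (SE 0.16, adjusted p = 3.77e-08), and was undetected in A549 (4.68 to 5.04, median 4.78). MX1 stood at 14.48, 14.49 and 14.10 against 10.32, 10.56 and 9.87, a difference of 4.11 (SE 0.44, adjusted p = 0.000388), with A549 from 5.0 to 8.15 (median 5.30). The brightest probe of every array stood at 14.76, so that MX1 on number 1 lay close to the top of the scale. GBP1 was the member closest to losing its call. It stood at 12.05, 12.50 and 11.11 against 9.50, 10.95 and 10.72, a difference of 1.5 (SE 0.31, adjusted p = 0.0123), with A549 from 5.24 to 6.02 (median 5.72). At 6 h its arrays lay 0.39 apart, and its adjusted p was 0.0544 with BEAS-2B fitted alone, 0.059 without either control array and 0.0633 without either 1 h array.

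The IFITM proteins block the fusion of viral with cell membranes, and BST2, also called tetherin, holds budding virus at the cell surface. IFITM1 stood at 13.90, 14.01 and 13.34 on number 1 and at 11.21, 10.99 and 11.00 on number 2, a difference of 2.69 (SE 0.19, adjusted p = 3.92e-05), with A549 from 4.78 to 6.00 (median 5.26). BST2 stood at 11.86, 11.68 and 11.01 against 9.26, 9.24 and 8.87, a difference of 2.39 (SE 0.14, adjusted p = 1.16e-05), and was undetected in A549 (4.48 to 5.08, median 4.89). IFITM3 stood at 14.10, 14.28 and 13.88 against 12.50, 12.68 and 12.68, a difference of 1.47 (SE 0.15, adjusted p = 0.000248), with A549 from 6.32 to 7.10 (median 6.69). These genes were clearly expressed on both sets of BEAS-2B arrays. IFITM2 differed by 1.33, and its level of 14.76 on BEAS-2B control number 1 was that array's brightest, so its differences from that array may be understated. The IFITM genes are close paralogs, and signal of one can reach a probe of another.

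ISG15 is a ubiquitin-like protein, UBE2L6 and HERC5 attach it to other proteins, and USP18 removes it and damps signalling at the type I receptor. USP18 stood at 9.18, 9.40 and 8.04 on number 1 and was undetected on number 2 (5.04, 5.16 and 4.55), which gave a difference of at least 12.3-fold (adjusted p = 1.31e-06). Its A549 levels ran from 4.81 to 5.56 (median 5.28). ISG15 stood at 14.36, 14.51 and 14.08 against 10.27, 10.60 and 10.32, a difference of 3.92 (SE 0.24, adjusted p = 1.62e-05), with A549 from 5.46 to 7.26 (median 6.31). HERC5 stood at 12.59, 12.50 and 11.39 against 9.34, 9.37 and 8.84, a difference of 2.98 (SE 0.17, adjusted p = 1.06e-05), with A549 from 7.6 to 8.56 (median 8.14). All 5 genes of the system were thus higher on number 1, with HERC6 at 2.66 and UBE2L6 at 1.94.

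RSAD2 (viperin) makes a chain-terminating nucleotide from CTP, and CMPK2, its neighbour in the genome, is a nucleotide kinase. RSAD2 stood at 10.60, 10.52 and 9.14 on number 1. It was undetected on the other 9 arrays, with 4.87, 4.75 and 5.13 on number 2 and 4.59 to 5.15 (median 4.74) in A549, and the difference was at least 28.5-fold (adjusted p = 1.16e-05). CMPK2 stood at 8.41, 8.33 and 6.26 and was undetected on number 2 (4.65, 4.64 and 4.59), at least 5.32-fold lower (adjusted p = 0.000563), with A549 from 4.52 to 5.33 (median 4.79). For both, number 1 gave a clear signal and the remaining arrays gave background, with the exception of 1 A549 array that detected CMPK2.

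IFI27 and IFI6 are small membrane proteins of mitochondria and the endoplasmic reticulum, and XAF1 is a pro-apoptotic protein. IFI27 stood at 13.09, 13.37 and 12.49 on number 1 and at 6.43, 6.50 and 6.26 on number 2, a difference of 6.59 (SE 0.16, adjusted p = 3.77e-08) or 96.1-fold, and was undetected in A549 (4.61 to 5.02, median 4.72). XAF1 stood at 10.34, 10.57 and 9.11 against 7.14, 6.65 and 6.74, a difference of 3.16 (SE 0.26, adjusted p = 8.31e-05), with A549 from 5.65 to 6.29 (median 6.06). IFI6 stood at 13.98, 14.15 and 13.68 against 11.17, 11.20 and 10.86, a difference of 2.86 (SE 0.16, adjusted p = 8.22e-06), with A549 from 8.78 to 9.74 (median 9.20). Within each number the arrays of IFI27 lay within about 1 of each other.

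Among the genes that act on RNA or translation, ISG20 is an exonuclease, DDX60 a helicase-like factor, and SAMD9 and SAMD9L restrict poxviruses and slow translation. SAMD9L stood at 9.62, 9.79 and 8.11 on number 1 and at 5.41, 5.72 and 4.81 on number 2, a difference of 3.86 (SE 0.20, adjusted p = 5.38e-06), and was undetected in A549 (4.63 to 5.11, median 4.70). ISG20 stood at 13.00, 13.22 and 12.60 against 8.72, 8.96 and 9.93, a difference of 3.74 (SE 0.27, adjusted p = 4.21e-05). Its A549 levels, 9.54 to 10.36 (median 9.82), overlapped those of BEAS-2B number 2 and lay below number 1. DDX60 stood at 9.69, 9.66 and 9.10 against 6.20, 6.61 and 6.43, a difference of 3.07 (SE 0.20, adjusted p = 2.48e-05), with A549 from 4.77 to 5.81 (median 5.30). SAMD9 differed by 2.78.

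PARP9 and PARP12 belong to the ADP-ribosyltransferases. PARP9, which pairs with DTX3L, stood at 10.83, 10.84 and 9.87 on number 1 and at 8.05, 8.42 and 7.90 on number 2, a difference of 2.39 (SE 0.16, adjusted p = 2.8e-05), with A549 from 5.98 to 7.25 (median 6.67). PARP12, which restrains viral translation, stood at 10.76, 10.46 and 9.77 against 8.58, 8.5 and 8.62, a difference of 1.76 (SE 0.19, adjusted p = 0.000428), with A549 from 6.79 to 8.22 (median 7.28). Both sets of BEAS-2B arrays were thus above A549 for PARP9 and for PARP12.

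The nuclear proteins IFI16 (a DNA sensor), SP110 (a nuclear body protein) and TRIM22 (a ubiquitin ligase) followed the same order. TRIM22 stood at 9.87, 9.84 and 8.59 on number 1 and at 4.98, 5.37 and 4.90 on number 2, where 1 of 3 arrays detected it, a difference of 4.35 (SE 0.20, adjusted p = 3.28e-06). It was undetected in A549 (4.42 to 4.72, median 4.56). SP110 stood at 11.69, 11.93 and 10.56 against 9.31, 9.12 and 9.05, a difference of 2.23 (SE 0.22, adjusted p = 0.000208), with A549 from 6.41 to 6.88 (median 6.62). IFI16 stood at 10.96, 10.97 and 10.07 against 8.87, 9.13 and 8.84, a difference of 1.72 (SE 0.18, adjusted p = 0.00037), with A549 from 4.87 to 6.31 (median 5.59). In each of these genes number 1 lay above number 2, and TRIM22 was at or near background on the other 9 arrays.

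Of the 7 remaining genes, IFI44L and IFI44 are related proteins of uncertain molecular function, and SLC15A3 carries histidine and small peptides across the lysosomal membrane. IFI44L stood at 12.17, 12.26 and 10.94 on number 1 and at 5.54, 6.12 and 5.0 on number 2, a difference of 6.23 (SE 0.16, adjusted p = 3.77e-08) or 75.2-fold, and was undetected in A549 (4.42 to 4.56, median 4.48). SLC15A3, undetected in A549 too (4.43 to 4.64, median 4.54), stood at 11.08, 11.32 and 9.89 against 5.85, 5.93 and 5.46, a difference of 5.01 (SE 0.18, adjusted p = 4.43e-07). IFI44 stood at 12.09, 12.05 and 11.51 against 7.10, 6.94 and 6.75, a difference of 4.95 (SE 0.14, adjusted p = 3.77e-08), with A549 from 4.71 to 5.26 (median 5.01). The other 4 genes of this group were higher on number 1 by 1.73 to 2.77. They are LGALS3BP, a secreted galectin ligand, the scramblase gene PLSCR1, EPSTI1, and IFI35, which is known as a partner of NMI.

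**Figure D2:**
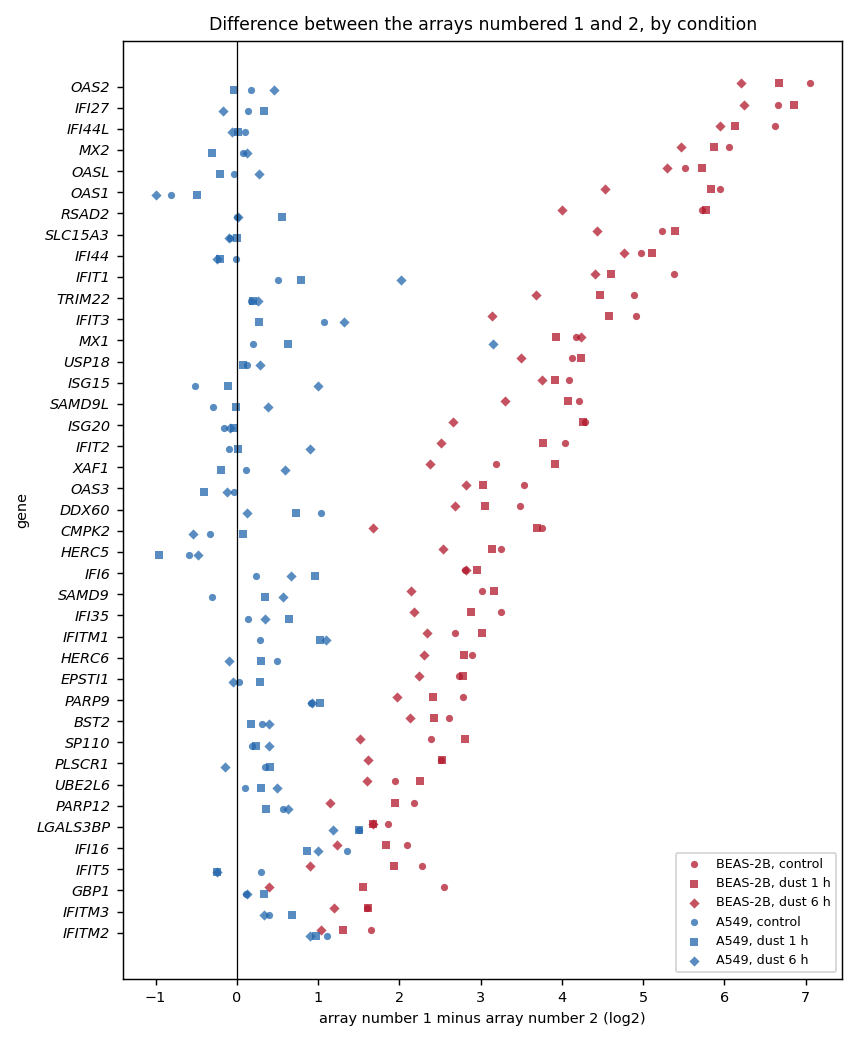
Array number 1 minus array number 2 (log2) for each gene within control, dust 1 h and dust 6 h, in BEAS-2B and in A549. All BEAS-2B points lie above 0, from 0.39 (GBP1 at 6 h) to 7.05 (OAS2 in control). The A549 points lie on both sides of 0, with a highest value of 3.15 (MX1 at 6 h). Above 0 in A549 were 28 (control), 29 (1 h) and 28 (6 h) of the 41 genes, against 49.4%, 48.5% and 50.2% of all features.

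Markers of other cell types were set beside this difference. Of 9 leukocyte markers 4 were measured, and their summed level was 9.67 to 10.02 on BEAS-2B number 1 and 10.46 to 10.78 on number 2. Of these 4 markers LYZ was higher on number 1 (0.72), CD14 (-1.62) and CD68 (-0.76) were lower, and HLA-DRA (0.26) did not pass. The leukocyte genes PTPRC, CD3E and TYROBP were detected on no array, nor were any of 4 endothelial markers. The sum over 4 measured fibroblast markers was 7.35 to 7.77 against 7.52 to 7.74, that over the epithelial markers 12.97 to 13.21 against 12.88 to 13.28, and that over 10 proliferation genes 13.21 to 13.28 against 13.29 to 13.61. Single markers within these sums did differ between the numbers. KRT5 (0.81) and KRT7 (0.79) were higher on number 1, and KRT19 (-1.05), the A549 identity marker ALDH3A1 (-2.40) and the proliferation genes RRM2 (-0.93) and MKI67 (-0.64) were lower. The part of cell makeup and growth in the difference between the numbers was not tested.

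In A549 the arrays numbered 1 and 2 differed much less. Of the 41 genes 4 passed, all higher on number 1, where 2.34% of all features passed in that direction and 3.61% in either, and the median difference was 0.20. LGALS3BP stood at 8.42, 8.31 and 8.42 on number 1 and at 6.93, 6.81 and 7.24 on number 2, a difference of 1.39 (SE 0.14, adjusted p = 0.000477). IFI16 stood at 6.23, 5.85 and 6.31 against 4.87, 4.99 and 5.32, a difference of 1.07 (SE 0.18, adjusted p = 0.011). The other genes that passed were IFITM2 at 1.00 (SE 0.15, adjusted p = 0.00554) and PARP9 at 0.95 (SE 0.16, adjusted p = 0.0118). The 3 arrays numbered 1 lay above the 3 numbered 2 in these genes and in 14 of the 41 in all, as in 11.0% of all features. LGALS3BP passed whichever array was left out. The count of 4 fell without either A549 control or either A549 6 h array. It rose with quantile normalization without background correction.

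The difference between numbers was itself compared between the lines with an interaction term. It was larger in BEAS-2B for 37 of 41 genes, where 4.03% of all features passed in that direction and 9.39% in either. The labels do not tie number 1 of one line to number 1 of the other. The sign with which the A549 difference enters this term is therefore arbitrary. The 37 include 11 genes that no A549 array detected, among them RSAD2 and TRIM22, for which the A549 difference is background against background. They also include CMPK2 and USP18, undetected on BEAS-2B number 2. Of the 28 genes detected both in A549 and on BEAS-2B number 2, 24 passed. Among the 18 genes detected on all 6 A549 arrays, OAS1 had the largest gap (6.20, SE 0.35, adjusted p = 1.5e-05). It exceeds the BEAS-2B difference of 5.43 because the A549 difference was -0.77. The genes that did not pass were GBP1 (1.30, SE 0.44, adjusted p = 0.0981), IFI16 (0.65, SE 0.26, adjusted p = 0.151), IFITM2 (0.34, SE 0.21, adjusted p = 0.362) and LGALS3BP (0.34, SE 0.19, adjusted p = 0.306). IFI16, IFITM2 and LGALS3BP are also among those that passed within A549. Their A549 differences had the same sign as those in BEAS-2B, which narrows the gap.

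The rest of the interferon pathway was read from lists of genes that are not among the 41, again between the BEAS-2B numbers. Of 15 measured ligands, receptors and signalling genes 4 passed, all higher on number 1, where 5.74% of all features passed in that direction. IRF7, the factor that amplifies interferon production, differed by 2.30 (SE 0.23, adjusted p = 0.000254), and IRF9, the DNA-binding part of ISGF3, by 1.91 (SE 0.16, adjusted p = 9.79e-05). The kinase gene JAK2, undetected on number 2, was at least 1.42-fold higher (adjusted p = 0.0296). The receptor genes did not pass. Those of the type I receptor, IFNAR1 and IFNAR2, stood at -0.31 (SE 0.14) and -0.12 (SE 0.15).

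Among the interferon genes themselves, IFNB1 (interferon beta) stood at 6.27, 8.01 and 4.90 on BEAS-2B number 1 and at 4.50, 4.51 and 4.49 on number 2. It was detected on 2 arrays only, both numbered 1 in BEAS-2B, through which it entered the test, and the difference was at least 2.2-fold (adjusted p = 0.0177). IFNE, an epithelial interferon, differed by -0.15 (SE 0.17, adjusted p = 0.632). The genes IFNL1, IFNL2, IFNL3, IFNG and IFNK were detected on fewer than 2 arrays and were not tested.

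Of 11 measured nucleic acid sensors and their effectors 8 passed, all higher on number 1, against 5.74% of all features. RIGI and IFIH1, the cytoplasmic RNA sensors RIG-I and MDA5, differed by 3.56 (SE 0.24, adjusted p = 2.48e-05) and 3.44 (SE 0.17, adjusted p = 4.48e-06). ZBP1, a sensor of Z-form nucleic acid, was at least 4.65-fold higher, and DHX58, the regulator LGP2, differed by 2.12. EIF2AK2, the kinase PKR, differed by 1.77 and the DNA sensor AIM2 by 1.20. MAVS, CGAS and STING1 did not pass. Of 29 other measured interferon-stimulated genes 25 were higher, against 5.74% of all features, and 1, PNPT1, was lower (-0.65, adjusted p = 0.0172). The largest were the chemokine genes CCL5 (4.26) and CXCL10 (3.63), then GBP4 (3.37), DTX3L (3.00), RTP4 (2.96) and WARS1 (2.86). GBP2, GBP3 and NMI did not pass. Like some of the 41, a few of these genes entered the test through the number 1 arrays, with detection on fewer than 2 other arrays: 2 of the 4 signalling genes that passed (IFNB1 and JAK2), 2 of the 8 sensors (DHX58 and ZBP1) and 4 of the 25 others.

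The question named in the series title is what dust extract does to these cells. In each line, each time was compared with control over both numbers. None of the 41 genes passed in A549 at 1 h, A549 at 6 h, BEAS-2B at 1 h or BEAS-2B at 6 h, where 0.0897%, 0.00499%, 0.125% and 0.0648% of all features passed (limma). The number of the 41 at an unadjusted p under 0.05 was 0 in each case. The changes carried large errors, with SEs from 0.61 to 2.5, since the spread between the BEAS-2B numbers enters each gene's variance. At these errors a change of 2-fold would not have been detectable. With a term for the number in the model, SEs were 0.17 to 0.54 and 0 genes passed in each case. In that limma fit 3, 5, 1 and 19 genes had an unadjusted p under 0.05, in the same order. The share of all features at that unadjusted threshold is not given, so no conclusion is drawn from these counts. The changes at 1 h had medians of 0.02 in A549 and 0.13 in BEAS-2B, and those at 6 h had medians of 0.07 and -0.52. The difference between lines in the change passed for 0 of 41 genes at 1 h and at 6 h, with 0 at an unadjusted p under 0.05, against 0.0% and 0.00997% of all features. At 6 h this difference (BEAS-2B less A549) was below 0 for all 41 genes, with a median of -0.68, against -0.0 over all features. The BEAS-2B change behind it had a median of -0.96 on number 1 and -0.16 on number 2. A p that misses the threshold does not show that the lines or times were alike.

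The changes were then read on arrays of the same number, where they rest on 1 dust array and 1 control array each and have no replicate check. On BEAS-2B number 1 at 6 h all 41 genes were below their control, against 50.2% of all features, with a median of -0.96 and a range from -2.14 (CMPK2) to -0.22 (IFITM3), and 17 were lower by more than 2-fold, against 1.21% of all features. All 41 values share the same 2 arrays. On BEAS-2B number 2, 27 of the 41 were below control at 6 h, against 52.6% of all features, with a median of -0.16 and a range from -0.73 (OASL) to 1.22 (ISG20). Whether the change differed between the numbers was not tested, as each number has 1 array per condition. At 1 h the medians were 0.07 on number 1 and 0.12 on number 2, and GBP1 stood at 1.45 on number 2. GBP1 at 6 h was at -0.94 on number 1 and 1.22 on number 2.

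Leaving out 1 BEAS-2B control or 6 h array sets unequal numbers against each other, so the difference between numbers then enters the change. The median of -0.52 at 6 h was then 1.16 without control number 1, -2.16 without control number 2, -1.81 without 6 h number 1 and 0.59 without 6 h number 2. Each of these fits holds 1 array in a BEAS-2B group, so only the medians are given.

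**Figure D3:**
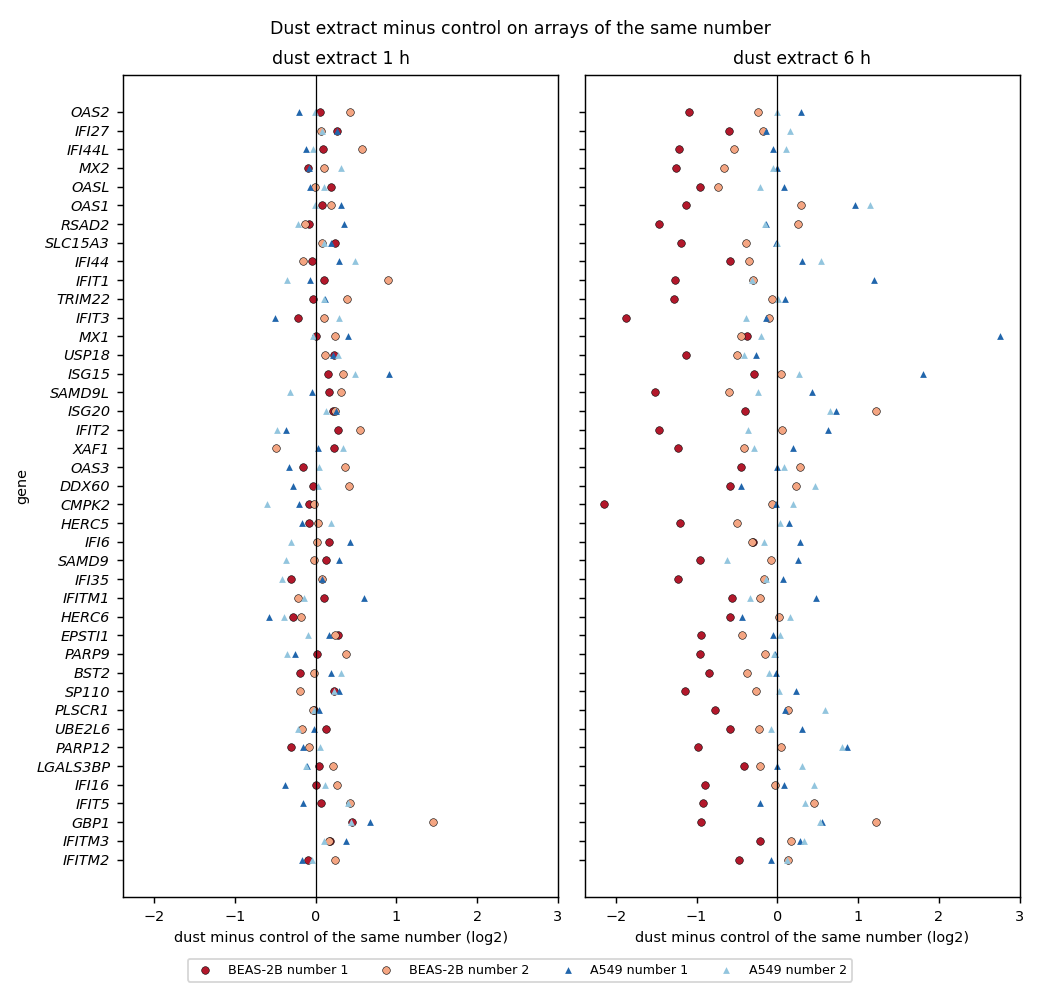
Dust extract minus control (log2) on arrays of the same number, at 1 h (left) and 6 h (right), for BEAS-2B and A549 numbers 1 and 2. At 6 h the BEAS-2B number 1 points lie below 0 for all 41 genes, with a median of -0.96, and those of number 2 have a median of -0.16.

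In A549 the within-number changes had medians of 0.03 at 1 h on both numbers, and of 0.09 (number 1) and 0.02 (number 2) at 6 h. A few genes stood apart on number 1 at 6 h. MX1 stood at 5.39, 5.80 and 8.15 in control, 1 h and 6 h on number 1 and at 5.20, 5.16 and 5.0 on number 2. ISG15 stood at 5.46, 6.37 and 7.26 against 5.98, 6.47 and 6.26, and IFIT1 at 5.92, 5.84 and 7.11 against 5.41, 5.05 and 5.10. The 6 h array numbered 1 was the highest of the 6 A549 arrays for each of these genes. OAS1 was above control at 6 h on both numbers, by 0.96 and 1.15, as were PARP12 (0.86 and 0.80) and ISG20 (0.73 and 0.65). None of these changes passed.

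The untreated lines were compared to ask how their resting levels differ. Of the 41 genes 13 passed, all higher in BEAS-2B, where 10.8% of all features passed in that direction and 22.3% in either. The median difference was 3.38, or 3.24 with the 13 genes undetected on the A549 control arrays at their bound. IFITM1 was higher by 7.30 (SE 1.08, adjusted p = 0.000717), MX1 by 7.10 (SE 1.70, adjusted p = 0.012), IFITM3 by 6.78 (SE 0.61, adjusted p = 2.2e-05) and ISG15 by 6.59 (SE 1.5, adjusted p = 0.00919). EPSTI1 and BST2, undetected in A549, were at least 39.7-fold and 40.5-fold higher (adjusted p = 0.00146 and 0.00113). GBP1 (5.48), IFIT2 (5.06), IFI16 (4.37), SP110 (4.0), IFITM2 (3.60), UBE2L6 (3.23) and PARP12 (2.60) also passed.

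These differences again depended on the number. BEAS-2B control number 1 was above the mean of the A549 controls for 41 of 41 genes, against 49.8% of all features. The median was 5.19 and the maximum 9.19 (MX1). Number 2 was above the A549 mean for 36 genes, against 51.0% of all features, with a median of 1.51 and values from -3.29 (OAS1) to 5.99 (IFITM3). All 4 genes of the IFITM and BST2 group passed, and both BEAS-2B control arrays were above both A549 control arrays in each. For OAS1, BEAS-2B control stood at 11.91 and 5.97 and A549 control at 8.85 and 9.66, so the mean difference of -0.31 (SE 2.08, adjusted p = 0.942) describes neither BEAS-2B array. ISG20 had BEAS-2B controls at 13.00 and 8.72 and A549 controls at 9.54 and 9.70. Which of the 13 genes passed depended on the single control array left out. Without BEAS-2B control number 1 the median difference was 1.51, that of number 2 alone, and without number 2 it was 5.19. The same medians hold where all BEAS-2B arrays of one number are dropped, alternatives chosen after the data were seen. Such fits hold 1 BEAS-2B control array and thus no spread between BEAS-2B controls, so no counts are given for them.

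**Figure D4:**
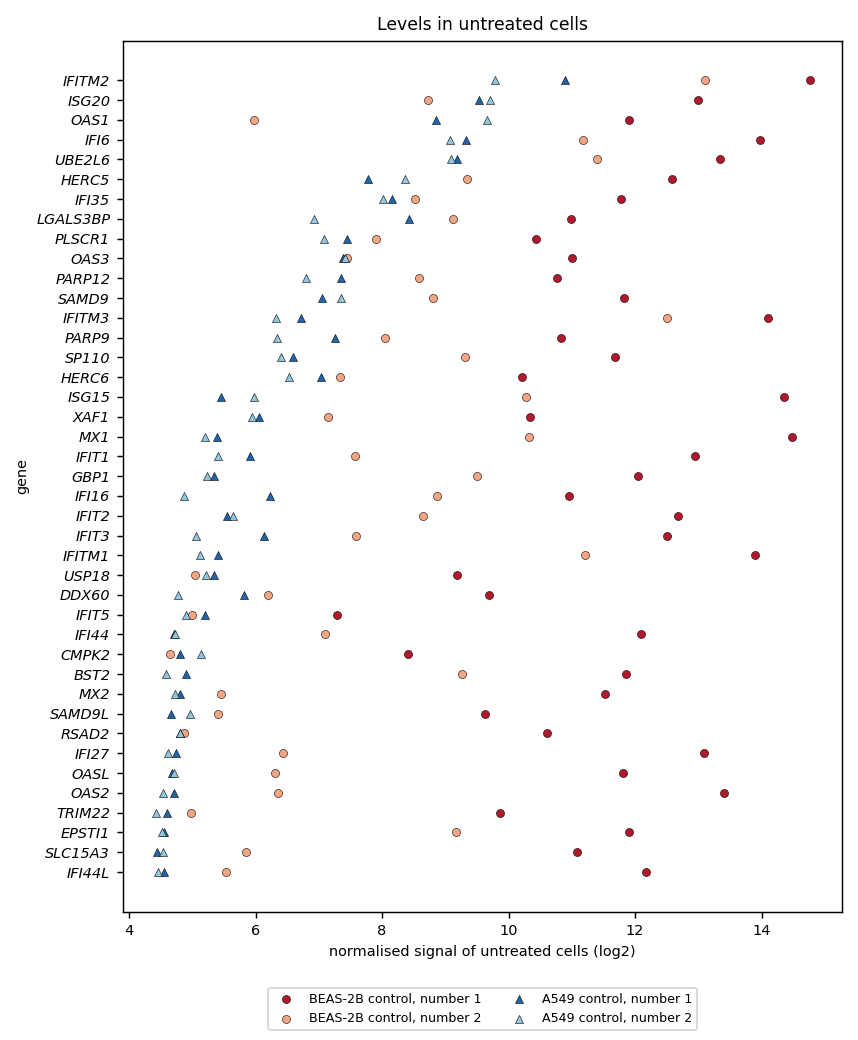
Normalised signal (log2) of the 41 genes on the 4 control arrays, 2 of BEAS-2B and 2 of A549. BEAS-2B number 1 is above both A549 arrays for all genes. BEAS-2B number 2 lies below both A549 arrays for OAS1 (5.97 against 8.85 and 9.66) and ISG20 (8.72 against 9.54 and 9.70). It also does so for USP18 and CMPK2, which were undetected on BEAS-2B number 2.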

How the data were processed

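The arrays were read out with GenomeStudio 2011.1, per the submitters' processing notes. The authors deposited probe intensity values (mean bead signal, neither background-subtracted nor normalised) with a detection p-value for each probe and array, and a matrix of linear intensity values that ranks probes as the raw signal does. Bead counts and bead errors, 24 columns in all, stayed unused. Values were computed with limma 3.58.1 in R 4.3.3 by neqc (normexp background correction inferred from detection p, offset of 16, quantile normalization, log2). Probes with detection p under 0.05 on at least 2 of 12 arrays were kept (24467), and the brightest probe stood for each gene (20060 features). Gene symbols came from the platform's probe table, in which 30112 probes have 1 symbol, 8 several and 17200 none.

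Groups and array numbers came from the sample titles. Dust and line comparisons used 1 model of 6 group means (6 residual and 4.71 prior degrees of freedom). The comparison of numbers added a number term within each line (4 residual and 5.67 prior). P-values were adjusted by Benjamini-Hochberg over all features of a comparison. Where a probe was undetected on every array of the dim group, the fold is a lower bound, set against the dimmest detected probe. Differences carry a standard error (SE), and the number of arrays limits the precision. Scripts were tested on simulated data. Promoter sequences are RefSeq's.

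The 41 genes and all lists were chosen with earlier results of these data known. Each gene is accounted for, and values on every array are given for up to 3 genes per role group with the largest difference between the BEAS-2B numbers. Genes outside the 41 are named from the lists, at most 6 per list by size among those that passed, beside the interferon genes and those that did not pass. Alternatives covered normalization, the detection filter, the probe rule, the block, the line fitted alone, the authors' matrix and leaving out arrays.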

Additional observations from a re-analysis of the deposited data

Results flagged for a closer look

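The difference between the arrays numbered 1 and 2 was larger in BEAS-2B than in A549 for 37 of the 41 genes by an interaction term in limma, and each is listed here for a closer look with the BEAS-2B difference less the A549 difference on the log2 scale. In the IFIT and OAS families these were IFIT1 (3.69), IFIT2 (3.17), IFIT3 (3.32), IFIT5 (1.77), OAS1 (6.20), OAS2 (6.44), OAS3 (3.32) and OASL (5.5). For the GTPases and membrane proteins they were MX1 (2.78), MX2 (5.83), IFITM1 (1.88), IFITM3 (1.00) and BST2 (2.10). The ISG15 system gave ISG15 (3.80), UBE2L6 (1.64), HERC5 (3.65), HERC6 (2.43) and USP18 (3.79), and the viperin pair gave RSAD2 (4.98) and CMPK2 (3.30). Genes of mitochondria and apoptosis and those acting on RNA or translation gave IFI6 (2.24), IFI27 (6.49), XAF1 (3.00), ISG20 (3.83), SAMD9 (2.57), SAMD9L (3.83) and DDX60 (2.44). The PARP and nuclear genes gave PARP9 (1.44), PARP12 (1.24), SP110 (1.96) and TRIM22 (4.13). The last group gave IFI35 (2.39), IFI44 (5.10), IFI44L (6.22), EPSTI1 (2.49), PLSCR1 (2.01) and SLC15A3 (5.08). Adjusted p ran from 1.13e-06 to 0.0223. For USP18, RSAD2 and CMPK2, undetected on BEAS-2B number 2, and for the 11 genes that no A549 array detected, the value is a fitted one taken in part against background and is no bound. What the numbers stand for is not stated, and they cannot be told apart from position on the chip. The labels also do not tie a number in one line to the same number in the other.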

How the results depend on the processing

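The BEAS-2B difference between numbers kept its direction for all 41 genes under every alternative run, and the count that passed was 40 with BEAS-2B fitted alone and 40 to 41 when single arrays were left out. Its call was lost only for GBP1, in 5 of 697 alternative values over the genes. The median was 2.68 with quantile normalization without background correction and with the authors' matrix. These 2 settings are not separate checks. The authors' matrix has the same maximum of 27824.9 on every array and ranks probes as the raw signal does, and GBP1 differed by 1.45 under both. In the model with the number term, leaving out either array of a condition removes the condition, so both give the same value. Leaving out an A549 array left the BEAS-2B difference of GBP1 at 1.5. The alternative values are thus not all separate checks. The difference between lines passed for 34 to 37 genes when single arrays were left out, and for 40 with quantile normalization without background correction or the authors' matrix. The A549 count of 4 was 9 with quantile normalization without background correction, 9 with the authors' matrix and 2 to 6 when single arrays were left out. The 4 dust counts and both differences between lines in the dust change were 0 in every alternative run. The shares of all features that passed in these alternative fits are not given. The counts thus show only how calls moved with the setting.

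The count of 13 between untreated lines was 40 with the replicate block (17.6% of all features higher), 7 to 34 when single arrays were left out, 24 when every BEAS-2B array numbered 1 was dropped and 41 when those numbered 2 were, both chosen after seeing the data. For the replicate block, deviations from the group means correlated across features between arrays of the same number by 0.404 to 0.468 within A549 and by 0.528 to 0.645 within BEAS-2B, and by -0.051 to 0.05 between lines. There are only 2 numbers and the labels state no pairing. With the block 0 genes passed in each dust comparison (limma; 0.349%, 0.279%, 0.538% and 0.568% of all features did), and 3, 5, 1 and 19 had an unadjusted p under 0.05 in A549 at 1 h and 6 h and in BEAS-2B at 1 h and 6 h. The lowest adjusted p was 0.0755 (MX2 in BEAS-2B at 6 h, a change of -0.96). For the difference between lines in the change, 0 passed with the block at 1 h and 6 h (0.0399% and 0.105% of all features), with 0 and 15 at an unadjusted p under 0.05 and a lowest adjusted p at 6 h of 0.275 (PARP12). The share of all features at the unadjusted threshold is not given, so no conclusion is drawn from the counts at it. The cause of changes across settings was not tested. Signals near the detection floor understate differences, and those near the brightest probe can do so too.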
